A study of Mus musculus with 8 samples.

Results

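The potassium channel genes described here are all rows of the deposited tables whose symbol begins with *Kcn* and a further letter, leaving out *Kcnq1ot1* and antisense transcripts. There were 56 such genes among 14189 genes in all. The E11.5 table held 46 of them among 13506 genes, the E14.5 table held 51 among 13413 genes, and 41 had a row in both. The annotation of the mm9 mouse genome names 94 protein-coding genes of this kind. All 56 were found there, and the other 38 had no row and are not analysed here.

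The values come from RNA-seq of mouse sympathetic ganglia at embryonic day 11.5 and embryonic day 14.5, and the comparison asks how these genes differ when *Isl1*, a homeodomain transcription factor, is reduced. At E11.5, *Isl1* CKO ganglia (*Wnt1-Cre;Isl1 f/f*, labelled Isl1-/-) were compared with control ganglia (*Wnt1-Cre;Isl1 +/+*, labelled Wild type), and both carried a Rosa26-tdTomato reporter. *Wnt1-Cre* acts in the neural crest, so that tissue of other origin keeps the gene. At E14.5, *Isl1* hypomorphic ganglia (*Isl1 f-neo/f-neo*, labelled Isl1 mutation) were compared with wildtype ganglia (*Isl1 +/+*, labelled Wild type). Ganglia at E11.5 were dissected under a fluorescence stereoscope and tissue without fluorescence was removed, a step not described for E14.5. For RNA extraction, ganglia of about 10 embryos of one genotype were pooled. There were 2 libraries per genotype, and the authors combined them into 1 FPKM value per gene (fragments scaled to transcript length and to the number of mapped fragments). The spread between libraries and the depth are therefore unknown. From these values no difference below could be tested, and none has a replicate check here. The paper's own qPCR of selected genes was not used.

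Potassium channels let potassium leave the cell, and so set the resting potential and end the action potential. The pore is formed by subunits that each carry a short selectivity filter. Voltage-gated (Kv) subunits open on depolarization, and auxiliary subunits tune them without forming a pore. Kv7 subunits carry the M current, a slow potassium current first known from sympathetic neurons, where it limits repetitive firing and is shut off by muscarinic receptors. Channels of the BK and SK type open with calcium, inward rectifiers hold the membrane near rest, and two-pore-domain channels carry leak currents.

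The selectivity filter was located in the coding sequence of the mm9 annotation, to show which of these genes can form a pore and where the most abundant ones differ. The search was for threonine or serine, any residue, glycine, then tyrosine, phenylalanine or leucine, then glycine. It found 2 matches in all 8 two-pore-domain genes and 1 in all 4 Kv7 and all 6 inward rectifier genes. All 14 Kv pore genes had at least 1, and all 9 Kv auxiliary genes had 0. Of the 13 genes with 0 matches, *Kcnma1* and *Kcnh8* have only a short coding model in this annotation, of 232 and 215 residues, and no match says only that these letters are not in that model. The stretches below are those of *Kcnk9* and *Kcnk3*, which together held more FPKM than any other pair of leak channels in control ganglia, and of *Kcnd2*, lower in both mutants. Each is shown 5′ to 3′ on the coding strand, with the codons of the match in capitals and 15 bases of coding sequence on either side.
*Kcnk9*, first filter: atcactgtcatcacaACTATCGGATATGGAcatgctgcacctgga
*Kcnk9*, second filter: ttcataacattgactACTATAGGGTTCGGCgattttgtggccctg
*Kcnk3*, first filter: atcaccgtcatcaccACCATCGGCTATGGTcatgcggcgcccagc
*Kcnk3*, second filter: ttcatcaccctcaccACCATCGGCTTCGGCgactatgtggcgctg
*Kcnd2*: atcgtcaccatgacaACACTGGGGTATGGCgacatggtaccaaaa

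In mm9, the second filters lie within single coding exons, at chr15:72343134-72343178 on the minus strand for *Kcnk9* and at chr5:30924560-30924604 on the plus strand for *Kcnk3*. An intron splits each of the other stretches. The first filter of *Kcnk9* covers chr15:72376427-72376448 and chr15:72343452-72343474 in exons 1 and 2, and that of *Kcnk3* covers chr5:30890951-30890972 and chr5:30924264-30924286 in exons 1 and 2. The *Kcnd2* stretch covers chr6:21167391-21167413 and chr6:21664135-21664156 in exons 1 and 2 of the plus strand. *Kcnk9* and *Kcnk3* shared 35 of 45 bases around the first filter and 34 of 45 around the second. The first and second stretches of *Kcnk9* itself shared 21 of 45.

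Control ganglia at E11.5 were dominated by a few channels. *Kcnk9*, the acid-sensitive leak channel TASK-3, stood at 91.2 FPKM, which was 32.9% of the summed FPKM of all 46 genes. The 5 genes at 10 FPKM or more also included *Kcnk3* (the related channel TASK-1) at 14.5, *Kcnd2* (the A-type channel Kv4.2) at 12.6, and *Kcnmb4*, an auxiliary subunit of BK channels, at 12.5 FPKM. Under 5 FPKM were 33 of the 46 genes. The median was 2.60 FPKM, against 11.3 FPKM over all genes of the table.

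In *Isl1* CKO ganglia *Kcnk9*, *Kcnk3* and *Kcnd2* were at least 1.5-fold lower, while many channels that were scarce in control ganglia were higher. *Isl1* itself stood at 133 FPKM in control and 40.0 FPKM in CKO ganglia. A change is given here as the log2 ratio of mutant FPKM + 0.1 to control FPKM + 0.1, a scale that understates changes of scarce genes, and 1.5-fold is the threshold for calling a gene lower or higher. By this rule 12 of 46 potassium channel genes were lower, or 26.1%, where 12.9% of all genes were lower. Another 18 were higher, or 39.1%, where 18.9% of all genes were higher, and 16 were within 1.5-fold. The median log2 ratio was 0.37 over the potassium channel genes and 0.05 over all genes. The median absolute log2 ratio was 0.88 against 0.37.

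**Figure D1:**
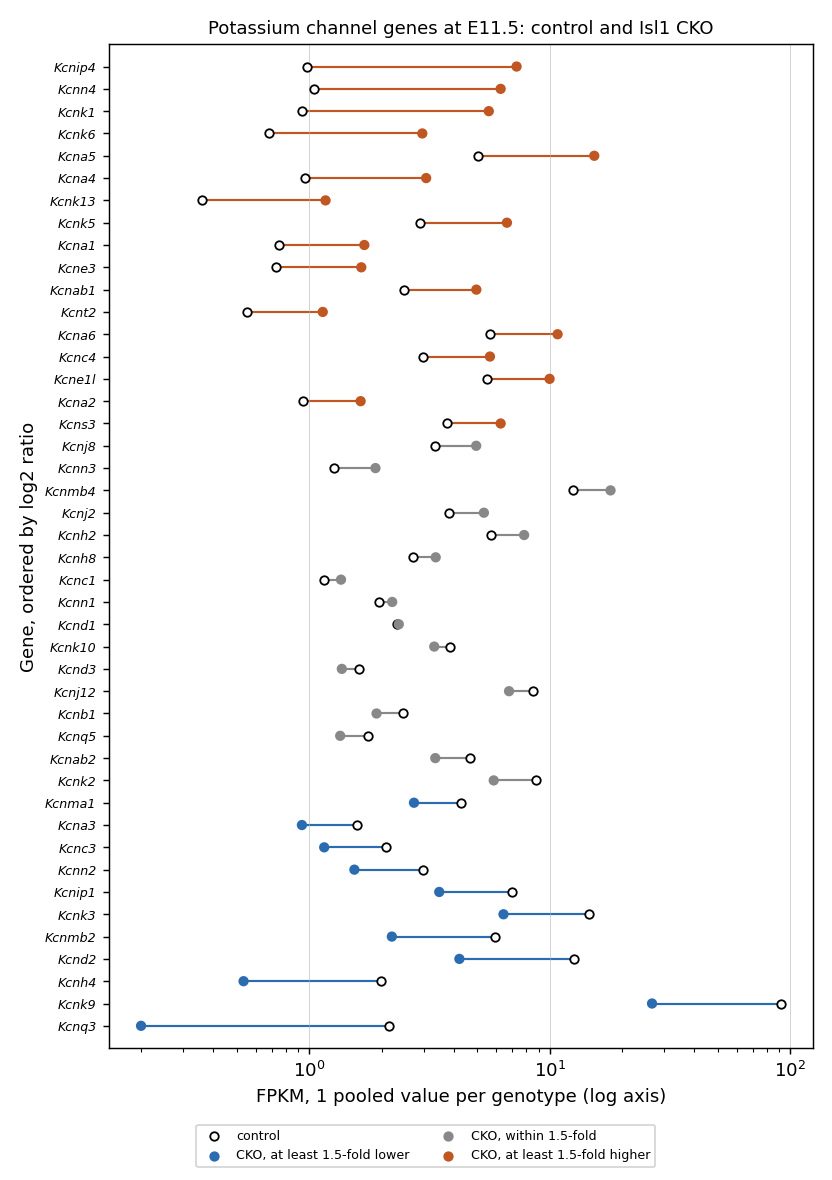
FPKM of 44 of the 46 potassium channel genes at E11.5 on a log axis, ordered by log2 ratio, with open circles for control and filled circles for *Isl1* CKO ganglia; each circle is 1 pooled value with no error bar. *Kcnk9* moves from 91.2 to 26.7 FPKM near the bottom, and most genes at the top start near or below 1 FPKM in control ganglia.

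The table keeps a gene only where at least 1 genotype reaches an FPKM of 1. For a gene under 1 in one genotype, this fixed the direction of the difference, but not whether it reached 1.5-fold. The direction was fixed in this way for 9 genes under 1 in control, all of them called higher. It was also fixed for 3 genes under 1 in CKO, all called lower. With 1 FPKM or more required in both genotypes, 34 potassium channel genes remained, of which 9 were lower and 9 higher, or 26.5% each. Of all genes kept by that requirement, 11.8% were lower and 15.5% higher. In these bulk samples, fewer cells of a type and less RNA per cell cannot be told apart.

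Among the leak channels, *Kcnk9* stood at 91.2 FPKM in control and 26.7 FPKM in CKO ganglia, a log2 ratio of -1.77, and *Kcnk3* at 14.5 and 6.43 FPKM, a log2 ratio of -1.16. The share of *Kcnk9* in the summed FPKM of all potassium channel genes was 11.6% in CKO ganglia. *Kcnk2*, the mechanosensitive channel TREK-1, was just inside the threshold with 8.81 and 5.85 FPKM, a log2 ratio of -0.58. In the opposite direction, *Kcnk1* (TWIK-1) stood at 0.933 and 5.58 FPKM, a log2 ratio of 2.46, and *Kcnk6* (TWIK-2) at 0.680 and 2.95 FPKM, a log2 ratio of 1.97. Both were under 1 FPKM in control ganglia, as was *Kcnk13*. These 3 could only have a row with a CKO value above the control value. The fourth higher gene, *Kcnk5*, stood at 2.89 and 6.64 FPKM, and of the 8 two-pore-domain genes 2 were lower and 2 within 1.5-fold. Of all genes of the table, 12.9% were lower and 18.9% higher. The summed FPKM of the 8 two-pore-domain genes was 123 in control and 58.6 in CKO ganglia, of which *Kcnk9* alone held 91.2 and 26.7.

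Of the 4 Kv7 genes, 2 were lower and 1 higher, where 12.9% of all genes were lower and 18.9% higher. *Kcnq3*, an M current subunit, stood at 2.14 FPKM in control and 0.200 FPKM in CKO ganglia. Its log2 ratio was -2.90, and -1.39 with a pseudocount of 1, since its CKO value is low. Being under 1 FPKM in CKO ganglia, it could only have a row with a CKO value below the control value.

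Of 13 Kv pore genes 3 were lower and 6 higher, where 12.9% of all genes were lower and 18.9% higher. The Kv4 genes carry the fast inactivating A current. *Kcnd2* stood at 12.6 FPKM in control and 4.21 FPKM in CKO ganglia, a log2 ratio of -1.56, while *Kcnd1* and *Kcnd3* were within 1.5-fold, so that *Kcnd2* made up 76.3% of the sum of these 3 genes in control and 53.1% in CKO ganglia. Among the Kv1 genes, *Kcna3* was lower, at 1.58 and 0.933 FPKM, a log2 ratio of -0.71. Being under 1 FPKM in CKO ganglia, it could only have a row with a CKO value below the control value. The other Kv1 genes with a row, 5 in number, were higher. Of these, *Kcna1*, *Kcna2* and *Kcna4* were under 1 FPKM in control ganglia, and so could only have a row with a CKO value above it. *Kcna5*, a delayed rectifier also known from smooth and heart muscle, stood at 5.06 and 15.3 FPKM, *Kcna4*, another A-type subunit, at 0.958 and 3.06 FPKM, and *Kcna6* at 5.67 and 10.8 FPKM. Both *Kcna5* and *Kcna4* had a log2 ratio of 1.58. The Kv3 gene *Kcnc4* was higher, at 2.98 and 5.65 FPKM, and so was *Kcns3*, a silent subunit that works only with Kv2 partners, at 3.75 and 6.25 FPKM.

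The auxiliary genes of the A current split. *Kcnip1* and *Kcnip4* encode calcium-binding KChIP proteins that associate with Kv4 channels. *Kcnip1* was lower, at 6.96 FPKM in control and 3.47 FPKM in CKO ganglia, a log2 ratio of -0.98. *Kcnip4* was higher, at 0.975 and 7.29 FPKM, a log2 ratio of 2.78. *Kcnab1*, a cytoplasmic beta subunit of Kv1 channels, was also higher, at 2.48 and 4.96 FPKM. In all, 1 of 6 Kv auxiliary genes was lower and 4 were higher, where 12.9% of all genes were lower and 18.9% higher. Of the 4 higher Kv auxiliary genes, *Kcnip4* and *Kcne3* were under 1 FPKM in control ganglia. They could only have a row with a CKO value above the control value.

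Of 8 genes of the BK, SK and sodium-activated channels, 3 were lower and 2 higher, where 12.9% of all genes were lower and 18.9% higher. The 2 higher channel genes were *Kcnn4* and the sodium-activated *Kcnt2*, which was under 1 FPKM in control ganglia. *Kcnma1*, the pore of the BK channel, was lower with a log2 ratio of -0.63. Its inactivating beta subunit *Kcnmb2* stood at 5.90 FPKM in control and 2.21 FPKM in CKO ganglia, a log2 ratio of -1.38, whereas the beta subunit *Kcnmb4* was within 1.5-fold at 12.5 and 17.9 FPKM. For each 100 FPKM of *Kcnmb4* there were 47.2 FPKM of *Kcnmb2* in control and 12.3 in CKO ganglia. Set against 100 FPKM of *Kcnma1*, which was itself lower, *Kcnmb2* stood at 138 FPKM in control and 80.9 in CKO ganglia. *Kcnn4*, the intermediate-conductance channel best known from red blood cells and immune cells, was higher, at 1.05 and 6.25 FPKM, a log2 ratio of 2.47. Among the EAG, ERG and ELK genes, *Kcnh4* was lower. It was under 1 FPKM in CKO ganglia, and so could only have a row with a CKO value below the control value. *Kcnh2*, the ERG channel, was within 1.5-fold at 5.70 and 7.83 FPKM. The 3 inward rectifier genes with a row, *Kcnj12*, *Kcnj2* and *Kcnj8*, were all within 1.5-fold. *Kcnh8* is uncertain at both stages, since it is the gene whose deposited fold change is not the ratio of its FPKM columns, and it was within 1.5-fold by the FPKM.

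Marker genes of other cell types moved with genotype at E11.5. Genes of an erythroid list took 2.30% of all FPKM in control and 11.3% in CKO ganglia, with 14 of 15 higher and 1 listed at 0 in CKO. All 18 genes of a yolk sac and trophoblast list, 10 of 11 macrophage genes, and 15 of 16 genes that mark neural crest or glia were higher, none of them listed at 0 in either genotype. Their shares of all FPKM were 0.0543% and 0.173%, 0.0111% and 0.0193%, and 0.0757% and 0.125%, in that order. Of 16 sympathetic identity genes 10 were lower, and of 20 pan-neuronal genes 8 were lower, with 0 higher in either list. In the other lists the genes called higher were 3 of 12 endothelial, 8 of 14 mesenchyme, 6 of 9 pericyte and smooth muscle, 5 of 9 skeletal muscle, 4 of 7 sensory neuron, 2 of 6 chromaffin and 1 of 2 liver genes. A further pericyte and smooth muscle gene was lower. Over all genes of the table, 18.9% were higher and 12.9% lower, and several of these lists are short. *Th*, the rate-limiting enzyme of noradrenaline synthesis, was still present at 145 FPKM in CKO ganglia, against 184 FPKM in control ganglia. The part of these lists in the potassium channel values was not tested. After rescaling to equal sums without the erythroid genes (the tables hold 0 mitochondrial genes), all genes of the table had a median log2 ratio of -0.18. On that scale 14 potassium channel genes were lower and 15 higher, where 22.4% of all genes were lower and 12.2% higher.

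At E14.5 the hypomorph differed from wildtype in far fewer potassium channel genes. *Isl1* stood at 162 FPKM in wildtype and 83.1 FPKM in hypomorphic ganglia. Of 51 genes, 3 were at least 1.5-fold lower, or 5.88%, where 2.12% of all genes were lower. Another 6 were higher, or 11.8%, where 2.89% of all genes were higher, and 42 were within 1.5-fold. With 1 FPKM or more required in both genotypes, 48 genes remained, of which 3 were lower, or 6.25%, and 4 higher, or 8.33%, against 1.76% and 1.87% of all genes. The median log2 ratio was -0.02 over the potassium channel genes and 0.003 over all genes, and the median absolute log2 ratio 0.20 against 0.12.

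**Figure D2:**
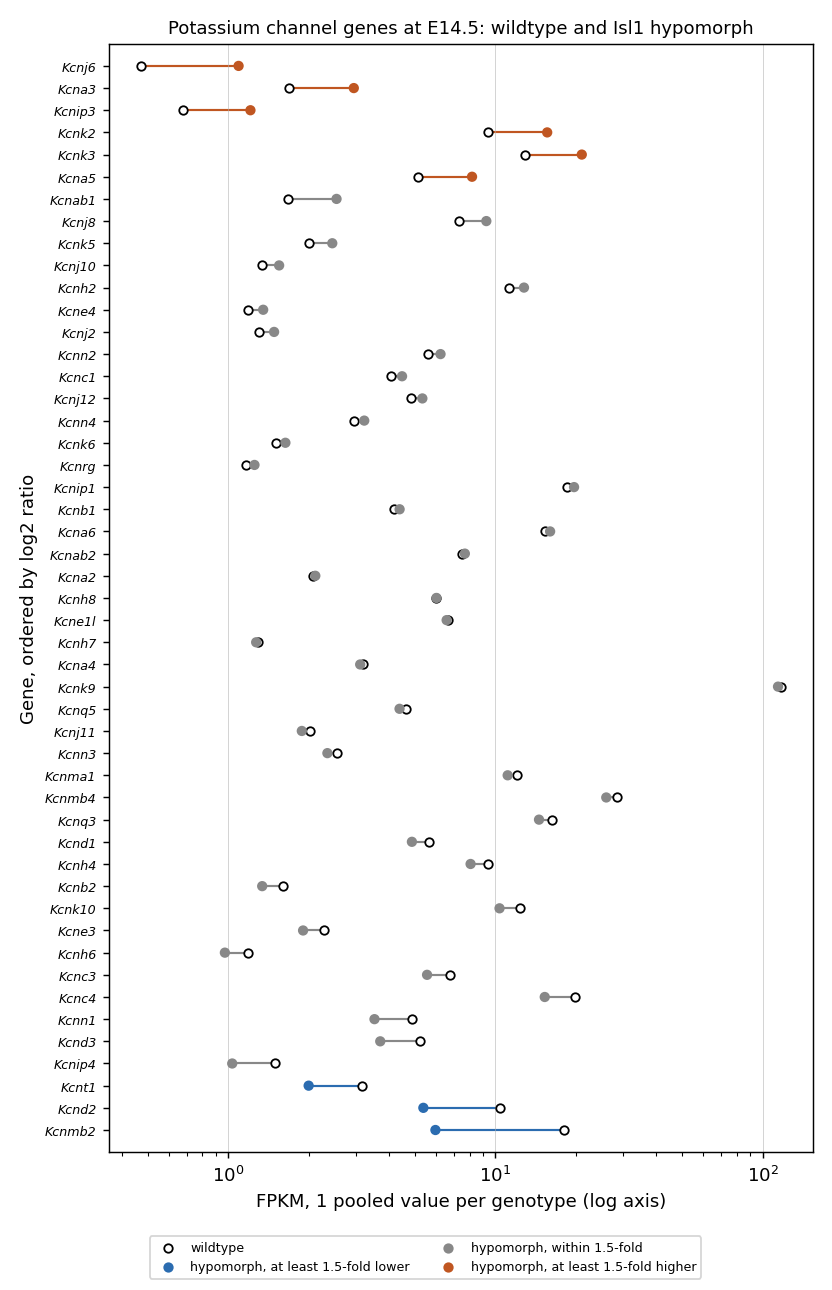
FPKM of 49 of the 51 potassium channel genes at E14.5 on a log axis, ordered by log2 ratio, with open circles for wildtype and filled circles for *Isl1* hypomorphic ganglia; each circle is 1 pooled value with no error bar. Most pairs of circles lie close together, and *Kcnmb2* at the bottom is furthest apart among genes above 2 FPKM, at 18.0 and 5.96 FPKM.

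The lower genes at E14.5 were *Kcnmb2*, *Kcnd2* and *Kcnt1*. *Kcnmb2* stood at 18.0 FPKM in wildtype and 5.96 FPKM in hypomorphic ganglia, a log2 ratio of -1.58, while *Kcnma1*, the pore it joins, was within 1.5-fold at 12.1 and 11.1 FPKM. For each 100 FPKM of *Kcnma1* there were 149 FPKM of *Kcnmb2* in wildtype and 53.7 in hypomorphic ganglia. *Kcnd2* stood at 10.4 and 5.37 FPKM, a log2 ratio of -0.93, and *Kcnd3* was within 1.5-fold at 5.24 and 3.71 FPKM, a log2 ratio of -0.49. *Kcnt1*, a sodium-activated channel with no row at E11.5, stood at 3.163 and 2.0001 FPKM, a log2 ratio of -0.64.

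The higher genes at E14.5 included a pair of leak channels. *Kcnk3* stood at 12.9 FPKM in wildtype and 21.0 FPKM in hypomorphic ganglia, a log2 ratio of 0.70, and *Kcnk2* at 9.40 and 15.6 FPKM, a log2 ratio of 0.73. The Kv1 genes *Kcna5*, at 5.14 and 8.18 FPKM, and *Kcna3*, at 1.69 and 2.95 FPKM, were higher with log2 ratios of 0.66 and 0.77. The remaining higher genes, *Kcnj6* (a G-protein-gated inward rectifier) and *Kcnip3*, were under 1 FPKM in wildtype ganglia, at 0.472 and 0.679 FPKM. *Kcnab1* was just inside the threshold with a log2 ratio of 0.58. Marker lists moved less than at E11.5. The erythroid list took 1.42% and 1.76% of all FPKM, with 3 of 17 genes higher and 1 lower. Of all genes, 2.89% were higher and 2.12% lower. In the neural crest and glial list 0 of 16 genes were called, and in the macrophage list 0 of 11. Their part in these values was not tested.

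*Kcnk9* and the Kv7 genes were within 1.5-fold at this stage. *Kcnk9* stood at 117 FPKM in wildtype and 114 FPKM in hypomorphic ganglia, and *Kcnq3* at 16.3 and 14.6 FPKM. The Kv auxiliary gene *Kcnip1* was at 18.5 and 19.7 FPKM, the Kv3 gene *Kcnc4* at 19.8 and 15.3 FPKM, *Kcnmb4* at 28.5 and 26.0 FPKM, and *Kcna6* at 15.3 and 16.0 FPKM. The row named *Kcnk10*, at 12.3 and 10.4 FPKM, is uncertain, because its values also appear under the symbol *Kcnk1* in the study's own lists. The log2 ratios of *Kcnj8*, *Kcnh2* and *Kcnn1* were 0.34, 0.18 and -0.45.

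Across the 41 genes measured at both stages, 5 passed 1.5-fold at both. *Kcnd2* and *Kcnmb2* were lower at both stages and *Kcna5* was higher at both. *Kcnk3* and *Kcna3* were lower at E11.5 and higher at E14.5. The stages differ in the *Isl1* allele, the control genotype and the dissection as well as in age, and these cannot be told apart. Across genes, which are not independent replicates, Pearson's r of the log2 ratios was 0.19 and Spearman's rho was 0.16.

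**Figure D3:**
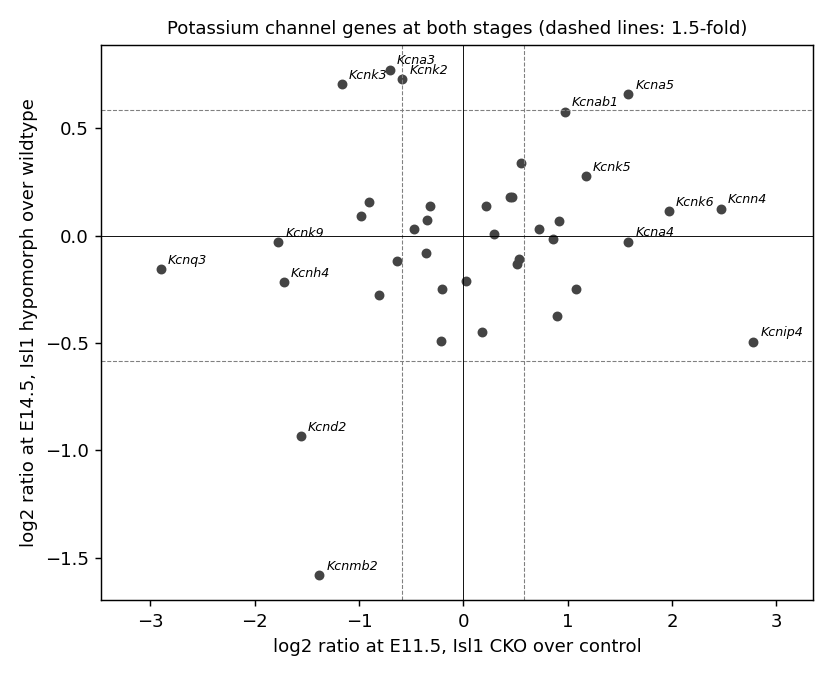
Log2 ratio of mutant over control FPKM for 39 of the 41 potassium channel genes with a row at both stages, E11.5 on the horizontal and E14.5 on the vertical axis, with dashed lines at 1.5-fold; each point is 1 gene. *Kcnd2* and *Kcnmb2* lie alone at the lower left, *Kcna5* at the upper right, and *Kcnk3* and *Kcna3* at the upper left.

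Without *Isl1* mutation, most potassium channel genes stood higher at E14.5 than at E11.5. The tables were normalized separately and the control genotypes differ, so the levels are set side by side only. *Kcnq3* was at 2.14 FPKM in E11.5 control and 16.3 FPKM in E14.5 wildtype ganglia, *Kcnc4* at 2.98 and 19.8 FPKM, and *Kcnmb2* at 5.90 and 18.0 FPKM. *Kcnk9* was the most abundant gene at both stages, at 91.2 and 117 FPKM, and *Kcnd2* stood at 12.6 and 10.4 FPKM. Of the 41 genes, 29 were at least 1.5-fold higher at E14.5, or 70.7%, and 2 (*Kcnj12* and *Kcnj2*) at least 1.5-fold lower. Over 12728 genes in both tables, 29.7% were higher and 12.7% lower by the same measure. The median ratio was 2.16 for potassium channel genes and 1.18 for all genes.

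**Figure D4:**
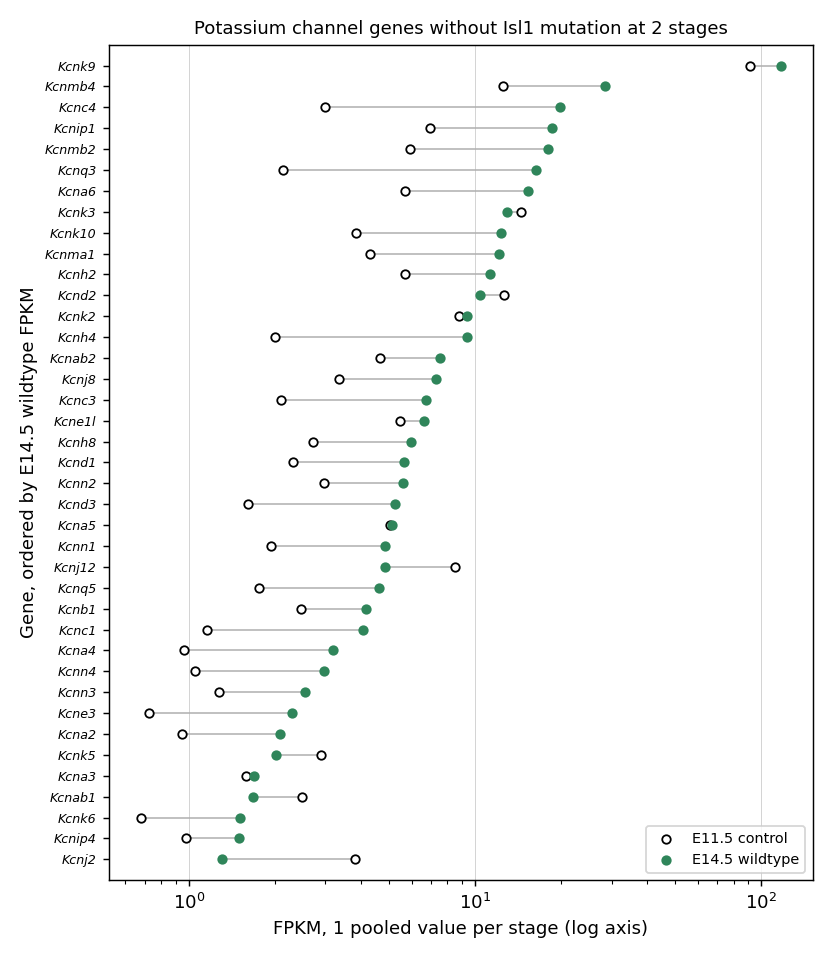
FPKM in E11.5 control ganglia (open circles) and E14.5 wildtype ganglia (filled circles) for 39 of the 41 potassium channel genes with a row at both stages, on a log axis and ordered by the E14.5 value; each circle is 1 pooled value with no error bar. In most rows the E14.5 circle lies to the right, as for *Kcnq3*, at 2.14 and 16.3 FPKM.

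The genes that were lower in CKO ganglia at E11.5 had higher levels in E14.5 wildtype ganglia than the genes within 1.5-fold. All 12 had an E14.5 row, with a median wildtype level of 12.5 FPKM, and 11 of them were at 5 FPKM or more. The 16 genes within 1.5-fold had a median of 5.44 FPKM. Of the 18 higher genes only 13 had an E14.5 row, with a median of 2.95 FPKM, and 5 were at 5 FPKM or more. With 1 FPKM or more required in both E11.5 genotypes, these medians were 12.9, 5.44 and 5.89 FPKM for the genes lower, within 1.5-fold and higher. For all genes of the table the medians were 14.4, 15.8 and 6.18 FPKM, so genes called higher sat at the low end there too, while genes called lower did not stand above those within 1.5-fold. The potassium channel groups already differed in the E11.5 control level from which the calls were made. That level ran from 1.58 to 91.2 FPKM for genes lower, 1.16 to 12.5 for genes within 1.5-fold and 0.357 to 5.67 for genes higher. Its part in the E14.5 medians was not tested.

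A list of 31 partner genes held proteins that anchor, traffic or modulate these channels. Of the 24 with a row at E11.5, 5 were lower and 4 higher, where 12.9% of all genes were lower and 18.9% higher. Their median log2 ratio was -0.02. The axonal anchors *Ank2* and *Ank3* were lower, at 98.5 and 28.5 FPKM and at 22.7 and 12.5 FPKM, *Ank3* being the ankyrin that holds Kv7 channels at the axon initial segment. *Akap5*, which ties kinases to Kv7 channels, stood at 4.9998 and 2.176 FPKM. *Dpp6*, a Kv4 partner, was higher at 8.15 and 12.5 FPKM, and *Chrm1*, the muscarinic receptor that shuts off the M current, was higher at 0.520 and 1.77 FPKM. Being under 1 FPKM in control ganglia, *Chrm1* could only have a row with a CKO value above the control value. The other called partners were *Adam22* and *Amigo1*, lower, and *Dlg2* and *Lrrc55*, higher. At E14.5, 28 partner genes had a row, of which 1 was lower (*Sptbn4*) and 2 higher (*Abcc9* and *Cntnap2*), against 2.12% and 2.89% of all genes, with a median of -0.09.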

How the data were processed

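RNA-seq was compared between *Isl1* mutant and control sympathetic ganglia at E11.5 and E14.5. The deposited FPKM, from cuffdiff, combine 2 libraries per genotype. The authors left out genes that stay below an FPKM of 1 (0 rows were below it in both columns). The deposited log2 fold changes and p-values are the authors' own cuffdiff comparisons and were not used here, except that the fold changes were checked against the FPKM columns (tolerance 0.01). Per the labels, the submitters' processing notes name Bowtie, TopHat 1.3.1, Cuffdiff 1.3.0 and the build dm3, a fly genome, whereas the study's methods name mm9; coordinates were taken from an mm9 annotation. The tables give no read numbers or values per library, so depth, precision and spread are unknown and no test was made.

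Log2 ratios were computed with a pseudocount of 0.1, and 1.5-fold was the threshold. The members and gene lists were chosen with earlier results of these data known. The rule for naming genes took those in the paper (*Kcnd2*, *Kcnmb2*), the 10 highest in control and the 10 with the furthest log2 ratio at each stage (the latter from an FPKM of 2 upward), the highest of each channel family, and those past the threshold at both stages. Other names were added after their values were seen. The marker lists were erythroid, endothelial, mesenchyme, pericyte and smooth muscle, skeletal muscle, macrophage, sensory neuron, chromaffin, yolk sac and trophoblast, liver, neural crest and glia, pan-neuronal and sympathetic identity. Some genes are counted but not reported by name here. The log2 ratio and the 1.5-fold call were tested on simulated data with control FPKM of 1 or more. Scarcer control values, the rescaling and the sequence search were not tested in this way. Python 3.11.15, numpy 2.4.6, pandas 2.3.3 and matplotlib 3.10.9 were used.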

Additional observations from a re-analysis of the deposited data

Results flagged for a closer look

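*Kcnk3* and *Kcna3* passed 1.5-fold in opposite directions at the 2 stages. The log2 ratio of *Kcnk3* was -1.16 at E11.5 and 0.70 at E14.5, a difference of 1.87. That of *Kcna3* was -0.71 and 0.77, a difference of 1.48. *Kcna3* stood under 1 FPKM in CKO ganglia, and with a pseudocount of 1 it lost its call at both stages, at -0.42 and 0.56, while *Kcnk3* kept both. With 1 pooled value per genotype the difference between stages was not tested, and allele, control genotype, dissection and age cannot be told apart.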

How the results depend on the processing

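No paired analysis was possible because only 1 pooled value per genotype was deposited, and leaving out a replicate could not be run for the same reason. At E11.5, a 2-fold threshold gave 6 lower and 10 higher potassium channel genes, or 13% and 21.7%, against 4.83% and 8.42% of all genes. Keeping genes that reach an FPKM of 5 gave 6 lower and 9 higher of 20 genes with a median log2 ratio of 0.49. These were 30% and 45%, against 12.9% and 15.1% of all genes kept. An FPKM of 1 or more in both genotypes gave 9 higher and a median of 0.10, and rescaling without the erythroid genes a median of 0.14. At E14.5, a 2-fold threshold gave 1 lower and 1 higher, or 1.96% each, against 0.783% and 0.977% of all genes. A 1.2-fold threshold gave 10 lower, or 19.6%, against 9.01% of all genes. With a pseudocount of 1 there were 2 higher, or 3.92%, against 1.62%. Genes that reach an FPKM of 5 gave 3 higher, or 11.5%, against 2.17%. No called gene among the named ones changed direction under any of these alternatives, but none could have done so. A change of pseudocount, threshold or FPKM cut keeps the sign of a ratio, and centring and rescaling shifted ratios by less than 1.5-fold. The other counts stayed within 1.5 times, and the other medians moved by less than 0.1. With a pseudocount of 1, *Kcna3* lost its call at E11.5, and *Kcna3*, *Kcna5* and *Kcnt1* lost theirs at E14.5. *Kcns3* lost its call at E11.5 under the rescaling. *Kcnk2* was called lower at E11.5 with a pseudocount of 0.01, with centring and with the rescaling. *Kcnab1* was called higher at E14.5 with a pseudocount of 0.01 and with the rescaling. Leaving out *Kcnh8* and *Kcnk10*, an alternative chosen after seeing the data, changed no count of calls. Depth limits could not be stated. Log2 ratios of scarce genes depend on the pseudocount, and with a pseudocount of 1 those at E11.5 were -1.39 for *Kcnq3*, 2.07 for *Kcnip4*, 1.77 for *Kcnk1*, 1.23 for *Kcnk6* and 1.82 for *Kcnn4*.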
